A study of Mus musculus with 8 samples.

Results

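The genes described were 10 epithelial-mesenchymal transition genes, chosen by name from the 54532 genes of the count table: the adhesion molecules Cdh1, Cdh2, and Epcam, the filament and matrix genes Vim and Fn1, and the transcription factors Snai1, Snai2, Zeb1, Zeb2, and Twist1. All 10 were found, each as 1 row, and all 10 were among the 18511 genes with enough counts to test. They were measured by bulk RNA-seq of poly(A)-selected RNA from subcutaneous 4T1-FLuc tumors, a mouse TNBC line that carries firefly luciferase and was grown in immunocompetent female BALB/cJ mice injected at 6 weeks of age. Control mice received saline (4 tumors; another label field of these samples gives the control as PBS), and treated mice received 5 intravenous courses of mAb-DXd/IMQ (4 tumors), 4 days apart, each of 16 mg/kg. The conjugate joins a humanized antibody to CD276 with 2 payloads, the topoisomerase inhibitor DXd and the Toll-like receptor agonist IMQ. The comparison asked which transcripts differed after treatment. Whole tumors were sequenced, so host stroma and immune cells contributed RNA along with the carcinoma cells. Total counts were 49398150, 45019927, 56388627, and 69582375 in saline tumors 1 to 4 and 51625237, 46196237, 42965317, and 34591912 in treated tumors 1 to 4. Levels are given as CPM after TMM normalization unless TPM, which also scales for gene length, is named. In these libraries 3 counts corresponded to 0.0439 to 0.0843 CPM, a floor that covers counting error only.

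In epithelial-mesenchymal transition, carcinoma cells loosen E-cadherin junctions and take on vimentin filaments, a fibronectin matrix, and motility. Factors of the SNAIL, ZEB, and TWIST families drive the program, in large part by binding E-box sequences and repressing epithelial genes such as Cdh1 and Epcam. 4T1 cells are known for keeping E-cadherin while metastasizing, and in a whole tumor vimentin, fibronectin, and ZEB2 are also made by host cells such as fibroblasts and macrophages.

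The E-box read by SNAIL and ZEB factors, CAGGTG or on the other strand CACCTG, was searched in the 250 bases before each start site in RefSeq promoters (GRCm38.p6), because it links the factors among the 10 genes to their epithelial targets. Of the 10 genes, 5 had a promoter entry (Epcam, Snai1, Twist1, Vim, and Zeb2). The search covered both strands and found 2 matches before Epcam, 1 before Snai1, and 0 before Twist1, Vim, and each of the 4 Zeb2 starts. At least 1 match was present in 5657 of the 32851 promoter windows (17.2%), so a match is common and describes only the letters. The upstream stretches with matches are shown 5′ to 3′ with the E-boxes in capitals, chr17:87635729-87635978 (plus strand) for Epcam and chr2:167537945-167538194 (plus strand) for Snai1; both end at the base before the annotated gene start and overlapped 0 genes of the table.
Epcam: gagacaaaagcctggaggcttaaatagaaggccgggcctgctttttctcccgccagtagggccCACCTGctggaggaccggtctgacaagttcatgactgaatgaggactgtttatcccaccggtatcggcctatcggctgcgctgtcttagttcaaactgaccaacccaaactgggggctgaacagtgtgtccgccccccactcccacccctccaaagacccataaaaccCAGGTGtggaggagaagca
Snai1: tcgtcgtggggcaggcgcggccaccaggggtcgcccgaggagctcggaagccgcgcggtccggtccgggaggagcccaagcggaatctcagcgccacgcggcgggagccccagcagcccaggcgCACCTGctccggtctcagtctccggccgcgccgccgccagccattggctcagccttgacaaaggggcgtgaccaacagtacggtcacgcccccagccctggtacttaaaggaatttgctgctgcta

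None of the 10 genes passed the thresholds, an FDR below 0.05 with an absolute log2 fold change above 0.58 (0 of 10 by edgeR's quasi-likelihood test, against 1.06% of all tested genes). DESeq2 and limma-voom each also placed 0 of 10 past both thresholds. An unadjusted p below 0.05 was found for 3 of 10 (Snai1, Zeb2, and Zeb1) and for 18.9% of all tested genes. The groups did not overlap in CPM for 2 of 10, Snai1 and Zeb1, against 13.1% of tested genes. Estimates were higher in treated tumors for 5 genes and lower for 5. With 10 genes, shares this near the background do not set the transition genes apart from the transcriptome, and the interval given with each gene shows how large a difference could have been missed.

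**Figure D1:**
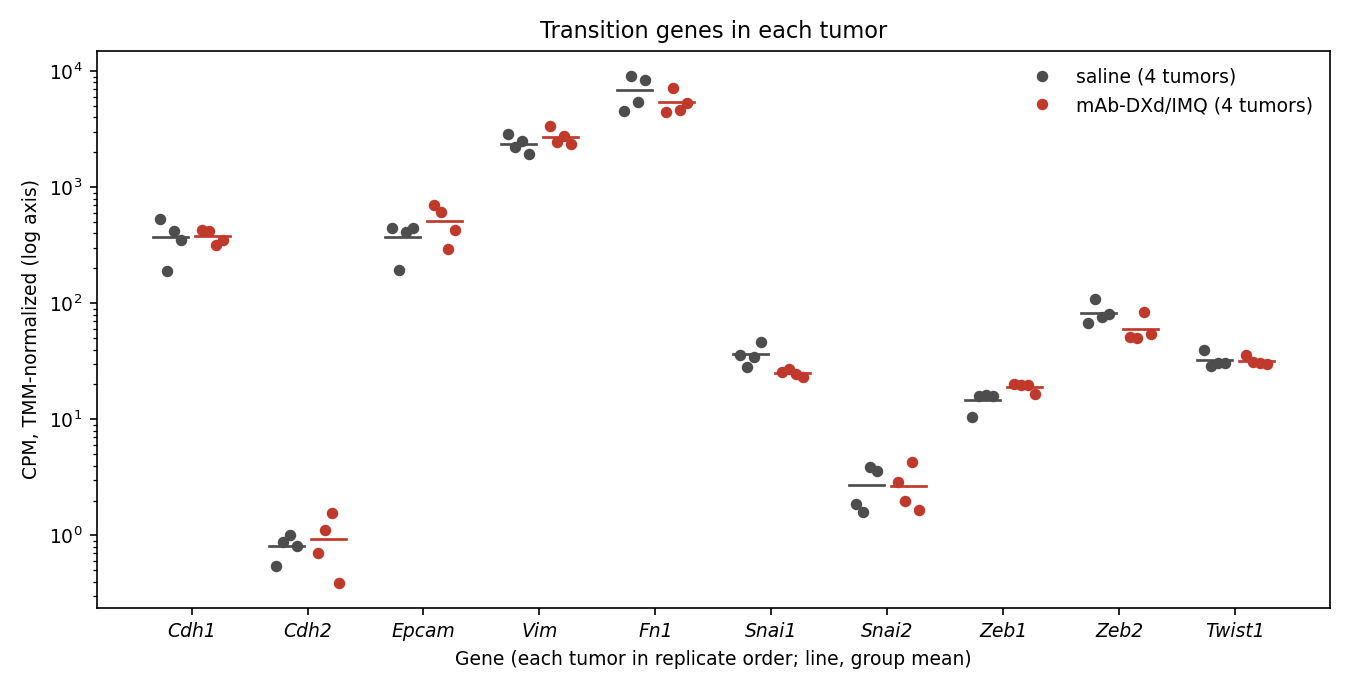
CPM of the 10 transition genes in each tumor on a log axis, saline in grey and mAb-DXd/IMQ in red, with 4 points and a line at the mean for each group. Fn1 and Vim lie at or above 1933 CPM in every tumor and Cdh2 near 1 CPM, and the groups are separate for Snai1 and Zeb1.

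The genes were ordered by TPM, which allows for gene length. Vim averaged 1522 TPM and Fn1 1483 TPM over the 8 tumors, with spreads that overlapped, followed by Epcam at 604 TPM and Cdh1 at 233 TPM. Twist1 (55.7 TPM) and Snai1 (53.7 TPM) led the transcription factors, ahead of Zeb2 at 10.2 TPM, Zeb1 at 4.635 TPM, and Snai2 at 3.82 TPM, and Cdh2 was lowest at 0.311 TPM. These tumors therefore carried high vimentin and fibronectin transcript together with high Cdh1 and Epcam transcript. The order of neighbours shifted with the group in places: Fn1 stood above Vim in saline tumors (1662 ± 508.5 against 1433 ± 269 TPM; SD, n = 4) and below it in treated tumors (1304 ± 332 against 1612 ± 233 TPM; SD, n = 4), differences within the spread. Snai1 and Twist1 were likewise within their spread in saline tumors (63.8 ± 13.3 and 56.8 ± 9.80 TPM; SD, n = 4), whereas in treated tumors Snai1 (43.6 ± 5.04 TPM; SD, n = 4) lay below Twist1 (54.7 ± 3.15 TPM; SD, n = 4) with no overlap between the 2 sets of 4 values.

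Cdh1 (ENSMUSG00000000303, chr8:106603351-106670246, plus strand), which encodes E-cadherin, an adhesion molecule often lost in the transition, was measured at 536, 191, 418, and 352 CPM in saline tumors 1 to 4. In mAb-DXd/IMQ tumors 1 to 4 it was at 424.5, 423, 319, and 354 CPM. The groups overlapped, and saline tumor 2 held the lowest value of all 8. Group means were 374 ± 144 CPM in saline tumors and 380.3 ± 52.3 CPM in treated tumors (SD, n = 4), a coefficient of variation of 38.5% against 13.7%. The log2 fold change was 0.02 (SE 0.25; 95% interval −0.54 to 0.58; edgeR adjusted p = 0.974), an interval of 0.690 to 1.499 as a fold change. Without saline tumor 2 the estimate turned to −0.20 (edgeR adjusted p = 0.638).

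Epcam (ENSMUSG00000045394, chr17:87635979-87651106, plus strand), an epithelial surface adhesion molecule, was measured at 447, 193, 413, and 442 CPM in saline tumors. In treated tumors it was at 701.5, 607, 295, and 428 CPM. Saline tumor 2 was again lowest, treated tumors 1 and 2 were above every saline tumor, and treated tumor 3 lay between saline tumors 2 and 3. The means were 374 ± 121.5 and 508 ± 181.5 CPM (SD, n = 4), and the log2 fold change of 0.44 (SE 0.30; 95% interval −0.22 to 1.10) had an edgeR adjusted p of 0.461. The saline tumors other than 2 lay within 413 to 447 CPM, which made saline tumor 2 stand far apart from its group for this gene. Without saline tumor 2 the log2 fold change was 0.225, and without treated tumor 1 it was 0.24. It was 0.63 without treated tumor 3 (edgeR adjusted p = 0.273).

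Cdh2 (ENSMUSG00000024304, chr18:16588877-16809246, minus strand), encoding N-cadherin, the cadherin that many carcinomas take up in the transition, was near the lower limit of what could be tested. It had 27, 39, 56, and 56 counts in saline tumors (0.547, 0.880, 1.00, and 0.819 CPM) and 34, 52, 71, and 14 counts in treated tumors (0.701, 1.11, 1.55, and 0.394 CPM). The treated tumors held both the highest and the lowest value, and the log2 fold change of 0.21 had a 95% interval from −0.75 to 1.18 (edgeR adjusted p = 0.837). Per length, Cdh1 transcript exceeded Cdh2 transcript 363-fold to 1726-fold over the 8 tumors. No tumor in either group thus showed N-cadherin transcript at a level near that of E-cadherin. Cdh2 turned to a log2 fold change of −0.14 without treated tumor 3, the tumor with its highest value.

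Vim (ENSMUSG00000026728, chr2:13573927-13582826, plus strand), which encodes the intermediate filament protein of mesenchymal cells, ranked 14 among all genes by total counts. It was measured at 2855, 2215, 2527, and 1933 CPM in saline tumors. In treated tumors it was at 3382, 2432, 2782, and 2345 CPM. Treated tumor 1 was highest and saline tumor 4 lowest, the other values overlapped, and the spread within groups was small (coefficients of variation of 16.7% and 17.2%). The log2 fold change was 0.20 (SE 0.18; 95% interval −0.19 to 0.59; edgeR adjusted p = 0.586). Leaving out 1 tumor gave estimates from 0.08 (without treated tumor 1) to 0.30 (without saline tumor 1).

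Fn1 (ENSMUSG00000026193, chr1:71585520-71653200, minus strand), encoding the matrix protein fibronectin, was the gene with rank 3 by total counts. It was measured at 4551, 9082, 5443, and 8323 CPM in saline tumors. In treated tumors it was at 4439, 7197, 4644, and 5356 CPM. Saline tumors 2 and 4 were the highest, and saline tumors 1 and 3 lay within the range of the treated group. The log2 fold change was −0.34 (SE 0.26; 95% interval −0.90 to 0.22; edgeR adjusted p = 0.507). With 1 tumor left out it ran from −0.51 (without treated tumor 2) to −0.18 (without saline tumor 2). Fn1 and Vim, both counted as mesenchymal, thus had estimates of opposite sign, and neither differed beyond its spread.

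The log2 ratio of Vim to Cdh1, a simple index of the balance between the 2 states, was 2.41, 3.54, 2.60, and 2.46 in saline tumors. It was 2.99, 2.52, 3.12, and 2.73 in treated tumors. All tumors but saline tumor 2 lay between 2.41 and 3.12, and saline tumor 2 was highest. The means were 2.75 ± 0.53 in saline and 2.84 ± 0.27 in treated tumors (SD, n = 4), a difference of 0.09 that was smaller than either SD. Without saline tumor 2 the difference was 0.35, and without saline tumor 1 it was −0.02.

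Snai1 (ENSMUSG00000042821, chr2:167538195-167542814, plus strand), the zinc finger repressor that acts on the E-boxes of Cdh1, came nearest to the thresholds among the 10 genes. It was measured at 35.9, 28.4, 34.3, and 46.6 CPM in saline tumors. In treated tumors it was at 25.45, 27.3, 24.75, and 22.99 CPM. Every treated tumor was below every saline tumor, and saline tumor 2 and treated tumor 2 nearly met. The mean was 36.3 ± 7.60 CPM in saline and 25.1 ± 1.78 CPM in treated tumors (SD, n = 4), and the coefficient of variation was 20.9% against 7.10%. The log2 fold change was −0.53 (SE 0.15; 95% interval −0.86 to −0.21; unadjusted p = 0.00414), which ranked 835 among the 18511 tested genes and gave an edgeR adjusted p of 0.0917. DESeq2 gave an adjusted p of 0.0313 with a log2 fold change of −0.54, short of the fold limit, and over the 19 alternatives the adjusted p ran from 0.0313 to 1 with a lower level in the treated group each time. Snai1 therefore did not pass under any setting tried, while its direction held in all of them.

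Snai2 (ENSMUSG00000022676, chr16:14705852-14709385, plus strand), the related repressor SLUG, was low, at 1.865, 1.602, 3.905, and 3.57 CPM in saline tumors and 2.87, 1.97, 4.26, and 1.66 CPM in treated tumors. Each group held both low and high tumors, and the log2 fold change was −0.03 (95% interval −0.87 to 0.82; edgeR adjusted p = 0.982). Its coefficient of variation was 42.8% in saline and 43.35% in treated tumors, the largest of the transcription factors in both groups. Its sign turned with the scaling, to 0.02 with upper quartile factors and 0.01 with no factors. The sign also turned without saline tumor 3 (0.19), saline tumor 4 (0.13), treated tumor 2 (0.10), or treated tumor 4 (0.15), and the estimate was −0.34 without treated tumor 3.

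Twist1 (ENSMUSG00000035799, chr12:33957671-33959829, plus strand), a basic helix-loop-helix factor, was measured at 39.4, 28.8, 30.7, and 30.7 CPM in saline tumors and at 35.7, 31.2, 30.4, and 29.9 CPM in treated tumors. The groups overlapped almost fully, and the log2 fold change of −0.03 had the narrowest interval of the 10 genes, −0.30 to 0.25 (edgeR adjusted p = 0.936). That interval lies inside the fold limit on both sides. The sign of the estimate turned with upper quartile factors (0.02), without saline tumor 1 (0.08), and without treated tumor 4 (0.01).

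Zeb1 and Zeb2 encode closely related zinc finger repressors of epithelial genes, and their estimates had opposite signs. Zeb1 (ENSMUSG00000024238, chr18:5591860-5775467, plus strand) was measured at 10.4, 15.9, 16.4, and 15.98 CPM in saline tumors and at 20.01, 19.7, 19.9, and 16.6 CPM in treated tumors. Every treated tumor was above every saline tumor, with treated tumor 4 close to saline tumor 3, and on the TPM scale these 2 overlapped (4.495 and 4.498 TPM). The log2 fold change was 0.38 (SE 0.165; 95% interval 0.01 to 0.74; unadjusted p = 0.0433; edgeR adjusted p = 0.247), and without saline tumor 1, the lowest, it was 0.24. Zeb2 (ENSMUSG00000026872, chr2:44983632-45117395, minus strand) was measured at 67.15, 108.8, 76.3, and 80.2 CPM in saline tumors and at 51.2, 50.3, 84.85, and 54.95 CPM in treated tumors. Treated tumors 1, 2, and 4 were below every saline tumor, and treated tumor 3 was above all saline tumors except 2. The log2 fold change was −0.46 (SE 0.195; 95% interval −0.89 to −0.03; unadjusted p = 0.0371; edgeR adjusted p = 0.232), it was −0.67 without treated tumor 3 (edgeR adjusted p = 0.0772), and it was −0.31 without saline tumor 2 (edgeR adjusted p = 0.457).

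The CPM ratio of Zeb2 to Zeb1, chosen after the values were seen and given without a test, was 6.42, 6.84, 4.65, and 5.01 in saline tumors. It was 2.56, 2.56, 4.26, and 3.30 in treated tumors. Zeb2 exceeded Zeb1 in CPM in every tumor, and each treated tumor had a lower ratio than each saline tumor. The mean log2 ratio was 2.50 ± 0.27 in saline and 1.63 ± 0.35 in treated tumors (SD, n = 4), a difference of −0.87, and without any 1 tumor the difference was between −1.02 and −0.78. The size of a CPM ratio depends on length, and Zeb2 (19942 bases) is longer than Zeb1 (10266 bases). In mean TPM, Zeb2 and Zeb1 were at 11.84 and 4.052 in saline tumors and at 8.648 and 5.218 in treated tumors.

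**Figure D2:**
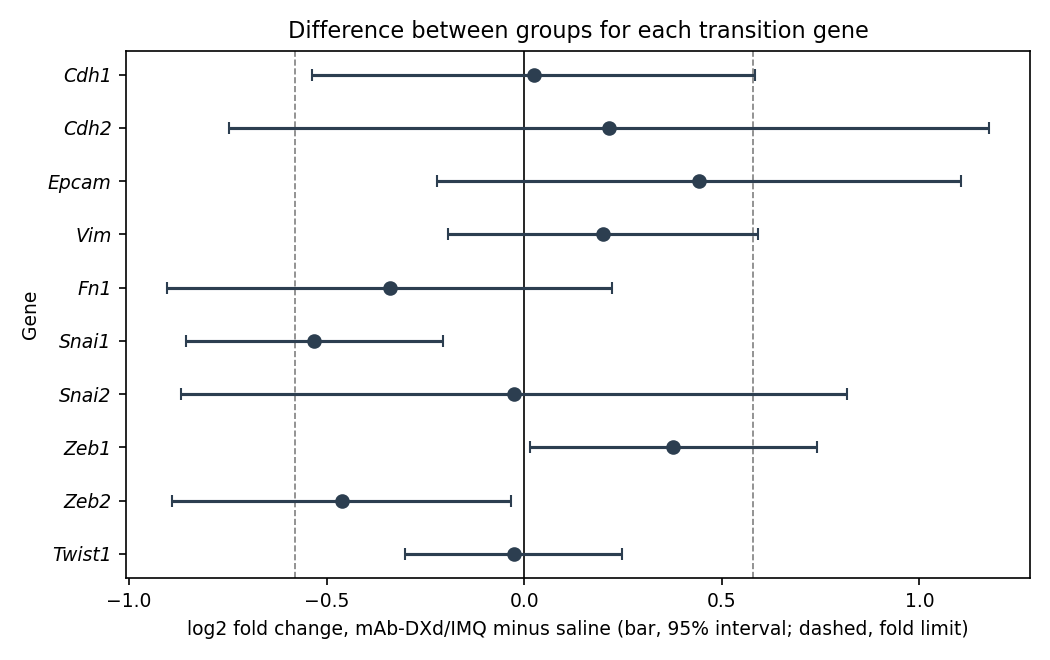
Log2 fold change of each transition gene, mAb-DXd/IMQ minus saline, with its 95% interval for that gene alone and dashed lines at the fold limit of 0.58. The intervals of Snai1, Zeb1, and Zeb2 exclude 0 before adjustment, and none of the 10 estimates lies outside the dashed lines.

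Genes on the other strand across the 10 had few counts, of which the largest were these: Zeb2os had 577 counts over the 8 tumors (2.02% of the Zeb2 counts), Gm10125 had 94 (1.42% of those of Zeb1), and Apol7d had 174 (0.00709% of those of Fn1). The strand setting of the counting was not given in the sources used here, so reads from such partners could not be told apart from those of the gene.

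Genes with the most similar course over the 8 tumors were found by the root mean square (RMS) difference of standardised log2 CPM, as a description. For Cdh1 they included Chmp4c (RMS 0.137) and Kansl1l (0.219), and for Epcam they were Kcnk1 (0.210), Proser2 (0.241), and Spint1 (0.247). Spint1 is itself an epithelial surface gene of the lists described further on. For Zeb2 they were Syk (0.176), Gab3 (0.188), and 4931406P16Rik (0.212), for Zeb1 Pros1 (0.177), Caml (0.191), and Srm (0.192), and for Snai2 Adam12 (0.225), Flrt2 (0.227), and Prrx1 (0.248), the last a mesenchymal transcription factor. For Snai1 they were Dcun1d4 (0.229), Phf8 (0.294), and Arl4c (0.294), for Twist1 Gm13408 (0.180), Ripk2 (0.310), and Cd82 (0.318), for Vim Ctdnep1 (0.261), Gnb4 (0.285), and Gon7 (0.286), for Fn1 Oxsm (0.198), Hectd3 (0.214), and Phospho1 (0.259), and for Cdh2 Khdrbs3 (0.227), Dhx37 (0.345), and Lypla2 (0.369). Among the 10 genes themselves, Cdh1 and Epcam were the closest pair (RMS 0.565) and Epcam and Zeb2 the most distant (1.825). The next closest pairs were Cdh1 and Twist1 (0.683), Vim and Twist1 (0.771), and Cdh2 and Snai2 (0.834). Cdh2 and Zeb1 (0.93) were nearer than Cdh1 and Vim (0.968), which were nearer than Fn1 and Zeb2 (0.987). Vim and Fn1 (1.796), Cdh1 and Zeb2 (1.726), and Cdh1 and Fn1 (1.688) were among the most distant. Some of these pairs thus followed a division into epithelial and mesenchymal genes and others did not, and a difference within and between these classes was not tested.

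Saline tumor 2 stood apart for several of these genes. It had the lowest Cdh1 and Epcam and the highest Fn1 and Zeb2 of the 8 tumors. Its summed level of 8 macrophage markers (led by C1qa) was 2845 CPM, against 880, 1574, and 1828 CPM in saline tumors 1, 3, and 4 and 1637, 1337, 1398, and 1080 CPM in treated tumors. Csf1r, the receptor that defines the lineage, was at 501 CPM there, against 107, 251, and 294 CPM in the other saline tumors. Of the simple keratins, Krt8 (659 CPM) and Krt18 (615 CPM) lay in that tumor inside the saline ranges of 611 to 698 and 602 to 685 CPM, whereas Krt7 (144.6 CPM) and Krt19 (24.6 CPM) were the lowest of the 8 tumors. Its skeletal muscle sum, led by Acta1, was also the lowest, at 41.5 CPM against 196 to 428 CPM in the other saline tumors, and 4 of its 7 adipocyte markers were at 0 counts. The adipocyte sum of that tumor, 98.47% of it from Fabp4, was 23.67 CPM, inside the saline range of 22.84 to 41.65 CPM. The part of adjacent tissue in the values of this tumor was not tested. Over the groups, 1 of 8 macrophage markers passed as lower in treated tumors (Cd163, log2 fold change −1.17, edgeR adjusted p = 0.0450), 0 passed as higher, all 8 had lower estimates, and the median log2 fold change was −0.51 against 0.02 over all tested genes. That count was 0 without any 1 of 7 tumors, saline tumor 1 being the exception, and also 0 with upper quartile factors, no factors, length and GC correction, the replicate block, and glmTreat. It was 2 with DESeq2 and 2 with every gene that had a count. None of the 8 was at 0 in any tumor. Estimates ran from −1.37 for Mrc1 (edgeR adjusted p = 0.0574), whose groups did not overlap, to −0.04 for Cd68, with C1qa at −0.08. Zeb2 and Fn1 also had lower estimates and did not pass, and the part of macrophage RNA in their values was not tested. In bulk tumors, fewer cells of a type and less RNA per cell cannot be told apart.

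Markers of epithelium from the overlying skin were examined beside Cdh1 and Epcam. The summed level of 11 keratinocyte markers, led by Krt14, was 278, 51.2, 195, and 133 CPM in saline tumors and 295.5, 616, 303, and 134 CPM in treated tumors. Treated tumor 2 was highest, with Krt5 at 112 CPM against 22.1 CPM or less elsewhere, and saline tumor 2 was lowest, with 7 of the 11 genes at 0 counts, Krt5 among them. Saline tumors 3 and 4 had 1 and 2 of the 11 at 0, and treated tumors 1, 3, and 4 had 4, 3, and 5. Krt5 was also low in saline tumor 4 (0.117 CPM) and in treated tumors 1, 3, and 4 (0.206, 1.05, and 0.394 CPM). Krt14 alone made up 70.35% and 71.28% of the sums of treated tumors 1 and 3. None of the 6 tested markers passed (median log2 fold change 0.92). Krt14 and Sfn are also expressed by carcinoma cells, and the part of these markers in the Cdh1 and Epcam values was not tested. The 5 carcinoma markers (Krt8, Krt18, Epcam, Cdh1, and Cd276) summed to 2138 ± 284 CPM in saline and 2390 ± 530 CPM in treated tumors (SD, n = 4), with 0 of 5 past the thresholds, and none was at 0. Cdh1 and Epcam are part of this sum, so it is not a separate measure of carcinoma content beside them.

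Fibroblast markers were followed because fibroblasts make Fn1, Vim, and Twist1. Their sum over 10 genes, led by Col1a1, was 2912, 3884, 6752, and 7182 CPM in saline tumors and 5652, 4351, 7694, and 2934 CPM in treated tumors. The groups had near equal means (5182 ± 2106 and 5158 ± 2023 CPM; SD, n = 4), 0 of 10 passed, and none was at 0. Snai2 was high in saline tumors 3 and 4 and treated tumor 3, the 3 tumors with the largest fibroblast sums; the part of fibroblast RNA in the Snai2 values was not tested. Among other host lineages, 0 of 8 endothelial and 0 of 7 pericyte and smooth muscle markers passed, with higher estimates for all 15 and medians of 0.53 and 0.68. T-cell markers passed as lower for 2 of 6 (Cd4, −1.91, and Cd8a, −1.22, both with an edgeR adjusted p of 0.0201) and neutrophil markers for 1 of 5 tested (Csf3r, −0.80, edgeR adjusted p = 0.0402). The medians were −1.09 for the T-cell and −1.74 for the neutrophil list, in which S100a8 (−1.74, edgeR adjusted p = 0.0521) and S100a9 (−1.81, edgeR adjusted p = 0.0598) had larger estimates than Csf3r and did not pass. The T-cell count was 0 without saline tumor 3, saline tumor 4, or treated tumor 4, and the neutrophil count was 0 without any 1 of 6 tumors. With the replicate block or glmTreat both were 0, and DESeq2 gave 5 of 6 T-cell and 3 neutrophil markers. The neutrophil count was also 0 with upper quartile factors and with no factors, 2 with length and GC correction, and 3 with every gene that had a count. None passed of 7 skeletal muscle, 6 adipocyte, and 4 Schwann cell markers tested.

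**Figure D3:**
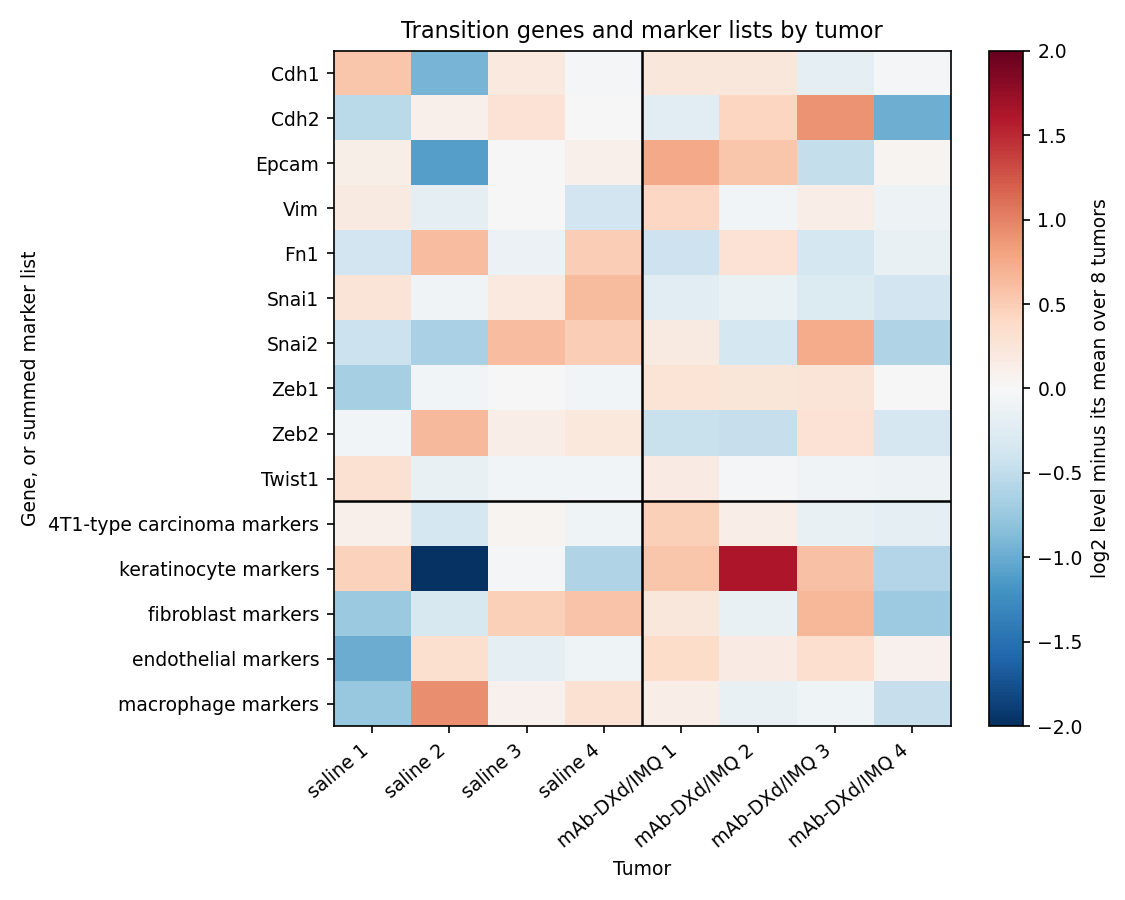
Log2 level of each transition gene and of 5 summed marker lists in each tumor, minus its mean over the 8 tumors (red above, blue below), saline on the left and mAb-DXd/IMQ on the right. Saline 2 is blue for Cdh1, Epcam, and the keratinocyte sum and red for Fn1, Zeb2, and the macrophage sum. The carcinoma sum contains Cdh1 and Epcam.

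In the cadherin-catenin complex, 0 of 7 genes passed, Cdh1 itself among them, 5 of 7 estimates were lower in treated tumors, and the median log2 fold change was −0.21. The most abundant, Ctnnb1 (β-catenin, 330 TPM) and Ctnna1 (α-catenin, 239 TPM), had log2 fold changes of −0.32 (edgeR adjusted p = 0.214) and −0.24 (edgeR adjusted p = 0.361). Of the other cadherins listed, 0 of 5 tested genes passed, against 1 with DESeq2 and 1 with every gene that had a count. Cdh15, a cadherin of muscle precursors, had the smallest p: it was at 2.575, 0.8575, 2.06, and 0.746 CPM in saline tumors and 6.085, 3.00, 20.25, and 6.27 CPM in treated tumors. Every treated tumor was above every saline tumor, with a log2 fold change of 2.51 (SE 0.60; edgeR adjusted p = 0.0612). Cdh11, the mesenchymal cadherin, and Cdh5, that of endothelium, had log2 fold changes of 0.24 and 0.26 (edgeR adjusted p = 0.770 and 0.690).

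None of 22 tested epithelial junction genes passed (median 0.17, 14 higher and 8 lower estimates). Cldn4 (571 TPM) and F11r (155 TPM), which encode tight junction proteins, were the most abundant, with log2 fold changes of 0.505 (edgeR adjusted p = 0.356) and 0.24 (edgeR adjusted p = 0.441). Dsc2, a desmosomal cadherin, had the smallest p; it was at 0.8515, 0.654, 0.340, and 0.468 CPM in saline tumors and 2.91, 3.53, 0.546, and 3.96 CPM in treated tumors. Treated tumor 3 was within the saline range and the other treated tumors above it (log2 fold change 2.24, SE 0.55, edgeR adjusted p = 0.0666). Of the 13 tested epithelial regulators 0 passed (median −0.11); Gata3 (59.7 TPM), the luminal factor, had a log2 fold change of −0.11, and Esrp1, a splicing factor of epithelial cells, −0.66 (edgeR adjusted p = 0.146). Of the 15 tested keratin and surface genes 0 passed (median 0.29), with Krt18 (1325 TPM) at 0.17 and Krt8 (942 TPM) at 0.01, and the smallest p belonged to Itgb4 (−0.59, edgeR adjusted p = 0.1285). The epithelial lists thus held 0 calls, with medians on both sides of 0; the junction list held 1 with every gene that had a count, 2 with DESeq2, and 1 without treated tumor 3, and the keratin and surface list held 1 with DESeq2.

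Among 17 tested genes of a list of other transition factors, which also holds inhibitors of the Id family, Id2 passed, with lower levels in treated tumors. The count was 2 without treated tumor 1. Id2, an inhibitor of basic helix-loop-helix factors, was at 98.25, 82.3, 77.6, and 104.1 CPM in saline tumors and at 54.6, 52.3, 43.9, and 57.25 CPM in treated tumors. All 4 treated tumors were below all saline tumors (log2 fold change −0.80, SE 0.13, edgeR adjusted p = 0.0219). Sox4, an HMG-box factor induced by TGF-β, reached an edgeR adjusted p of 0.0492 with a log2 fold change of −0.54, short of the fold limit. The list's median, which mixes factors with these inhibitors, was −0.06, near that of all tested genes (0.02).

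Of 23 mesenchymal state genes, 1 passed, with higher levels in treated tumors. Nes, which encodes the intermediate filament nestin, a partner of vimentin, was at 24.2, 33.0, 35.8, and 19.6 CPM in saline tumors and at 68.1, 55.9, 89.6, and 70.7 CPM in treated tumors. The groups did not overlap (log2 fold change 1.34, SE 0.20, edgeR adjusted p = 0.0201). The list had a median of 0.36 with 17 higher and 6 lower estimates; Axl, a receptor kinase of mesenchymal cells, was at 579 to 700.1 CPM in saline and 603 to 652 CPM in treated tumors, and Tpm1, an actin-binding protein, had a log2 fold change of 0.59 (edgeR adjusted p = 0.0824). Nestin is also made by endothelial cells and pericytes, whose markers had higher estimates in treated tumors (medians of 0.53 and 0.68), and the part of their RNA in the Nes values was not tested.

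TGF-β is a main inducer of the transition, and a list of 25 genes covered ligands, receptors, and SMADs of the TGF-β superfamily, with BMP genes and pathway inhibitors such as Smad7 and Ski among them. Of these 1 passed, Smad3, which carries the TGF-β signal to the nucleus; the count was 2 with every gene that had a count. It was at 213, 267, 224, and 246 CPM in saline tumors and at 138.5, 158, 119, and 143 CPM in treated tumors. The groups did not overlap (log2 fold change −0.77, SE 0.12, edgeR adjusted p = 0.0201). Estimates were lower in treated tumors for 22 of 25 genes, a count that mixes inducers and inhibitors, with a median of −0.24, where 47.4% of all tested genes had lower estimates. The 3 higher estimates were those of the ligand genes Tgfb2 (log2 fold change 1.01, edgeR adjusted p = 0.225), Inhba (0.26), and Tgfb1 (0.03). The co-receptor Tgfbr3 had a log2 fold change of −1.12 (edgeR adjusted p = 0.0668), and Ltbp1, which holds latent TGF-β in the matrix, −0.61 (edgeR adjusted p = 0.0868). The calls of Id2, Nes, and Smad3 were each lost without saline tumor 3 (edgeR adjusted p = 0.06575, 0.0618, and 0.0682), without saline tumor 4 (0.0957, 0.0846, and 0.0957), and without treated tumor 4 (0.0694 for each), and that of Id2 also without treated tumor 2 (0.0567); the direction held each time. Over the 19 alternatives, each of the 3 genes passed in 13, and the adjusted p ranged from 3.09e-05 to 0.974 for Id2, 2.83e-07 to 0.168 for Nes, and 1.02e-05 to 1 for Smad3.

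Genes for the co-repressors and turnover of SNAIL were described beside Snai1, and 0 of 17 passed (median −0.06). Gsk3b, the kinase that marks SNAI1 for degradation, had the smallest p; it was at 95.7, 105.5, 86.3, and 92.4 CPM in saline tumors and 64.1, 69.9, 75.75, and 65.7 CPM in treated tumors. The groups did not overlap, and the log2 fold change was −0.46 (SE 0.10, edgeR adjusted p = 0.05355). Btrc, the ubiquitin ligase subunit that binds SNAI1 once it is marked, had a log2 fold change of −0.53 (edgeR adjusted p = 0.147). The co-repressors Ctbp1 (142.5 TPM) and Kdm1a (68.35 TPM) had log2 fold changes of −0.11 (edgeR adjusted p = 0.643) and 0.02 (edgeR adjusted p = 0.942).

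**Figure D4:**
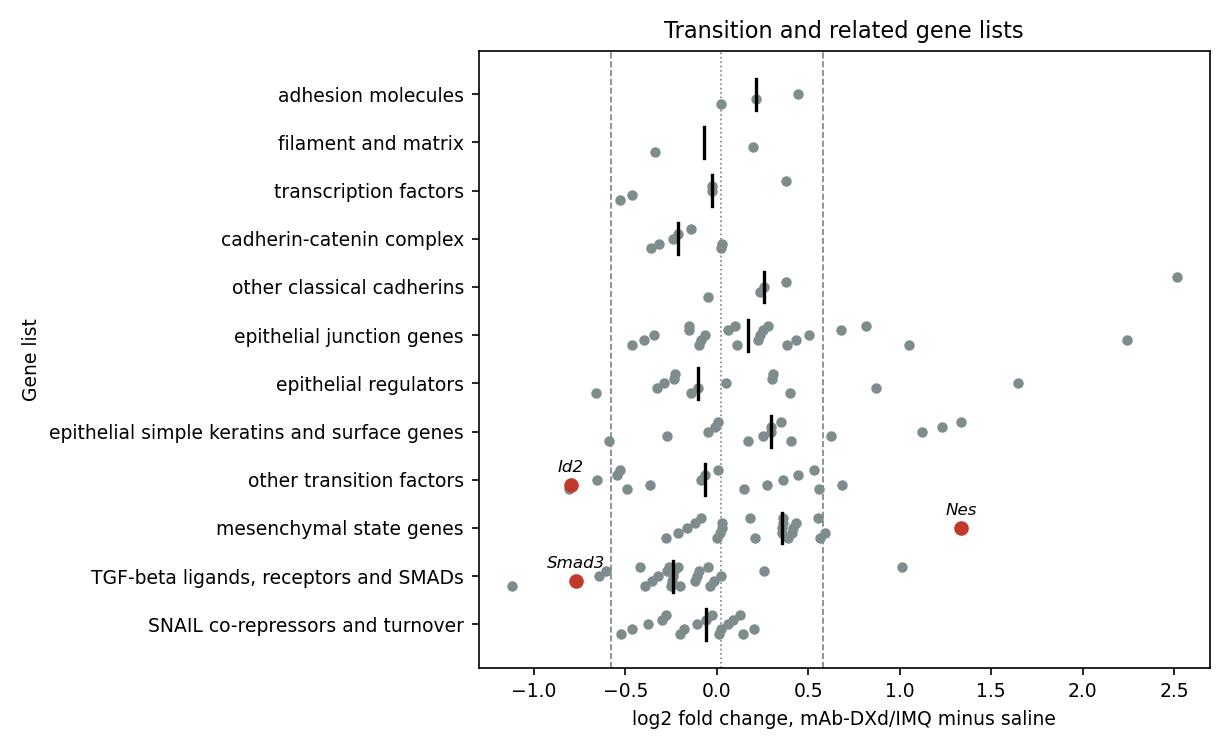
Log2 fold change, mAb-DXd/IMQ minus saline, of each tested gene (points) by list, with a bar at the list's median, dashed lines at the fold limit, and a dotted line at the median of all tested genes. Genes past the thresholds are in red and named: Id2 and Smad3 on the lower side and Nes on the higher side. The list labelled as other classical cadherins also holds a cadherin that is not of the classical type.

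Across all tested genes, log2 fold change and log length had a Spearman's rho of −0.212, a description across genes that are not independent replicates, and −0.028 after correction for length and GC content. With both corrected together, so that their parts were not told apart, Snai1 had a log2 fold change of −0.68 (edgeR adjusted p = 0.0733) and Zeb2, the longest of the 10 at 19942 bases, −0.32 (edgeR adjusted p = 0.430), Twist1 had −0.17 (edgeR adjusted p = 0.559), and 0 of 10 passed.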

How the data were processed

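Counts per gene were deposited by the authors without normalization for 8 tumors, and groups and replicate numbers came from the sample labels. The deposited length of each gene, in bases, was used only for TPM and for a length correction. The submitters' processing notes list HISAT2, HISAT, TopHat2, and mm39, without versions, yet 98.3% of 54409 shared genes, and 9 of the 10 described, had the start and end of GENCODE M21, so coordinates are given as GRCm38. The counting program was not given in the sources used here.

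Tests were run in R 4.3.3 with DESeq2 1.42.0, edgeR 4.0.16, and limma 3.58.1, and figures were drawn in Python 3.11.15 with matplotlib 3.10.9. Genes were kept by filterByExpr defaults (minimum count 10, minimum total count 15), scaled by TMM (factors 0.940 to 1.07), and fitted over all 8 tumors with group as the only term, using the quasi-likelihood F-test of edgeR. Adjusted p-values are Benjamini-Hochberg values over all 18511 tested genes. Genes passed at an FDR below 0.05 and an absolute log2 fold change above 0.58, of which there were 197 (101 higher and 96 lower in treated tumors). Standard errors were derived from the coefficient and its F statistic, and 95% intervals from them hold for each gene alone. Log2 CPM used a prior count of 2. The steps were tested on simulated data.

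Named genes were the 10 members, list genes past the thresholds, up to 3 of a list with the highest TPM or smallest p, and the 3 genes with the nearest profile (mean of at least 1 CPM), of which 1 for Cdh1 is not reported here. Krt7, Krt19, Cd68, Smad7, Ski, Tgfb1, Tgfb2, and Inhba are named outside this rule, to show what a list holds or how its genes differ. Zeb2os, Gm10125, and Apol7d are named as genes on the other strand across members. The members and lists were chosen with earlier results of these data known. Alternatives were RLE, upper quartile, and no factors, 2 other filters, DESeq2, limma-voom, FDR alone, glmTreat, a replicate block, length and GC splines (5 degrees of freedom each; GC content from the longest GENCODE M21 transcript, found for 99.87% of tested genes) with and without the block, and leaving out each tumor; for the Vim to Cdh1 ratio, a prior count of 0.5 and TPM. The same were run for the Zeb2 to Zeb1 ratio, chosen after seeing the data. Within-group pairs of tumors differed by far more than sampling noise (lowest chi-square per degree of freedom 34.1), so none was a duplicate. No difference in total counts was detected by a two-sided exact permutation test over 70 assignments (p = 0.171). With 4 tumors per group this does not show equal depth. Total counts ran from 45019927 to 69582375 in saline tumors and from 34591912 to 51625237 in treated tumors. The labels give no sequencing batch.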

Additional observations from a re-analysis of the deposited data

Results flagged for a closer look

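Among 44 groups of 4 tumors checked (the 10 genes, the Vim to Cdh1 ratio, and 11 marker sums in each treatment group), 5 held a tumor far from the other 3, measured as the gap to the nearest tumor over the whole range (Dixon's ratio); chance gives about 1 in 20, or 2.2 of 44. Saline tumor 2 was far below the others for Epcam (0.908) and far above them for the log2 ratio of Vim to Cdh1 (0.837). Saline tumor 1 was far below the other saline tumors for Zeb1 (0.928), and treated tumor 4 was far below the other treated tumors for Zeb1 (0.905). Treated tumor 3 was far above the other treated tumors for Zeb2 (0.830). The cause was not tested for any of them.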

How the results depend on the processing

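Of the 10 transition genes, 0 passed the thresholds under each of the 20 alternatives, except that Cdh2 was not tested with the filter of at least 1 CPM in 4 tumors, which left 9 genes. Epcam, Vim, Fn1, Snai1, Zeb1, and Zeb2 kept their direction under 19 of 19 alternatives that give a fold change, with log2 fold changes from 0.225 to 0.63, 0.08 to 0.30, −0.51 to −0.18, −0.68 to −0.38, 0.24 to 0.47, and −0.67 to −0.31. Genes with estimates near 0 changed sign: Snai2 was at 0.0229 with upper quartile factors and 0.0137 with no factors, Twist1 at 0.0187 with upper quartile factors, and Cdh1 at −0.0023 with length and GC correction. Leaving out 1 tumor gave −0.20 to 0.25 for Cdh1, −0.14 to 0.47 for Cdh2, −0.34 to 0.19 for Snai2, −0.0894 to 0.0782 for Twist1 (which was at −0.17 with length and GC correction, with and without the block), and −0.02 to 0.35 for the Vim to Cdh1 log2 ratio. The count over all tested genes, 197, was 358 with every gene that had a count, 813 with DESeq2, 7 with glmTreat against the fold limit, 120 with length and GC correction, and 10 to 203 when 1 tumor was left out; glmTreat tests a stricter hypothesis, and otherwise the cause was not tested. It was 14 with a replicate block and 14 with length and GC correction and the block. Same-numbered tumors did not deviate together (correlations of −0.17 to 0.08), so the number was not taken as a pairing, and Id2, Nes, and Smad3 had edgeR adjusted p = 0.0641, 0.0587, and 0.0786 with the block. Upper quartile factors split the calls into 145 higher and 73 lower, against 101 and 96. DESeq2 also gave 1 call among the fibroblast and 1 among the endothelial markers, 3 each among the TGF-β superfamily genes and the other transition factors, and 2 among the mesenchymal state genes. Depth limited Cdh2 most, at 14 to 71 counts per tumor.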
